A study of Mus musculus with 12 samples.

Results

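The genes described here are brakes on cytokine signals in mouse Th9 cells, the CD4+ T helper cells that secrete IL-9. They comprised 5 genes of the suppressor of cytokine signaling (SOCS) family (*Cish*, *Socs1*, *Socs2*, *Socs3* and *Socs7*), 3 protein tyrosine phosphatases (*Ptpn2*, *Ptpn6* and *Ptpn22*) and the adaptor *Sh2b3*. The members are a named list with no threshold on a measured value, drawn up with earlier results of these data known, and all 9 were found among the 32051 genes of the table. Naive CD4+ T cells from spleens of C57BL/6J mice, 6 to 8 weeks old, were activated with anti-CD3 and anti-CD28 and polarized with IL-4 at 10 ng/mL and TGF-β at 1 ng/mL, with antibodies that block IL-12 and IFN-γ. RNA was taken on day 4. The cells of all groups received this same polarization, and they differed in the compound added: the solvent DMSO, EpA at 10 μM, fatostatin at 5 μM, or EpA plus fatostatin at the same concentrations. EpA is a cyclic lipopeptide of the surfactin type, and fatostatin is an inhibitor of the lipid-regulating factor SREBP. Each of the 4 groups had 3 libraries. The labels did not say whether these came from separate mice or cultures, so the p-values measure the spread between these libraries. IL-4 and TGF-β were present in every group, so no group shows the genes without cytokine.

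When a cytokine binds its receptor, JAK kinases phosphorylate the receptor and STAT factors, and the STATs enter the nucleus. Among the genes they switch on are the SOCS genes, whose proteins bind phosphorylated receptors or JAKs through an SH2 domain and hand them to a ubiquitin ligase through the SOCS box, which makes the SOCS genes both products and brakes of the signal. *Cish* and *Socs2* are classical targets of STAT5, *Socs1* of STAT6 among others, and *Socs3* of STAT3. The phosphatases remove the phosphates themselves: *Ptpn2* encodes TC-PTP, which acts on JAK1, JAK3 and nuclear STATs, *Ptpn6* encodes SHP-1, and *Ptpn22* encodes PEP, which acts with the kinase Csk on Lck and related kinases below the T cell receptor. *Sh2b3* encodes LNK, an adaptor that restrains JAK2.

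The libraries held between 36019739 and 43656682 reads on the listed genes, as recovered from the deposited values, a 1.21-fold range. The 6 T cell markers (the CD3 chains, *Cd4*, *Cd5* and *Lck*) were present in every library, *Cd4* at 78.1 to 92.2 FPKM (fragments per kilobase of exon, scaled to the depth of the library). Markers of other cell types were low but not at 0 in all libraries: 4 mast cell and basophil markers summed to 0.686 to 1.91 FPKM, 4 erythroid markers to 0.169 to 0.721, and 3 NK cell markers to at most 0.105. The sum of the T cell markers moved with EpA, at 558 to 567 FPKM with DMSO and 547 to 563 with fatostatin against 495 to 500 with EpA and 480 to 485 with EpA plus fatostatin. The sum of the myeloid markers, low throughout, moved the other way, at 0.329 to 0.566 FPKM with DMSO, 0.635 to 0.734 with EpA, 0.548 to 0.695 with fatostatin and 0.81 to 0.885 with EpA plus fatostatin. The CD8 chains summed to 8.71 to 9.79 FPKM with DMSO, 7.85 to 8.57 with EpA, 8.55 to 10.2 with fatostatin and 6.98 to 8.6 with both. The 5 B cell markers, mostly *Cd79b* (4.66 to 7.43), summed to 5.99 to 7.9, 5.2 to 6.23, 7.55 to 8.68 and 6.29 to 6.89 in the same order, so that fatostatin lay above EpA plus fatostatin and the latter above EpA without overlap. The part of any of these sums in the changes given below was not tested. In bulk RNA, fewer cells that express a gene and less RNA of it per cell cannot be told apart.

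All 9 members were expressed and tested in every comparison. On the FPKM scale, which divides by exon length and so allows levels to be set side by side, the order with DMSO was *Ptpn6* (61.7 ± 0.768, SD, n = 3), *Cish* (42.41 ± 0.321), *Ptpn2* (35.96 ± 0.43), *Socs2* (33.54 ± 0.406), *Ptpn22* (27.83 ± 0.864), *Socs1* (21.91 ± 0.574), *Socs3* (8.274 ± 0.329), *Sh2b3* (7.285 ± 0.18) and *Socs7* (5.697 ± 0.146). Libraries of neighbors in that order did not overlap. *Ptpn6* was above 94.2% of the tested genes and *Socs7* above 52.9%. The order changed at 2 places in other groups. With EpA, *Ptpn2* (37.69) and *Cish* (37.57) overlapped, and with fatostatin *Sh2b3* (7.564) and *Socs3* (7.128) overlapped. These levels depend on the exon length, taken over all annotated transcripts, so a gene with long alternative exons such as *Socs2* (9531 bp) or *Cish* (6419 bp) has a lower FPKM than its main transcript would give.

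**Figure D1:**
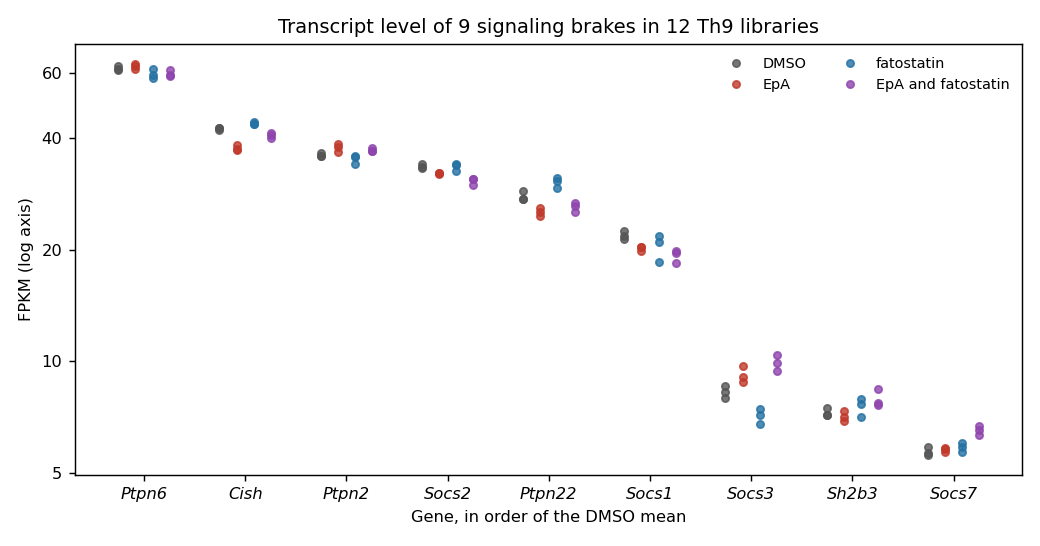
FPKM (log axis) of the 9 members, ordered by their DMSO mean, in each of the 12 libraries (points) with the 4 groups in separate colors. The groups of a gene lie closer together than most neighboring genes: the means of *Cish* run from 37.57 to 43.76 and those of *Socs3* from 7.128 to 9.933.

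STAT dimers bind DNA at the palindrome TTCNNNGAA. Because *Cish* and *Socs3* moved with the compounds and are known STAT targets, the RefSeq promoter windows on GRCm38.p6, 250 bases before to 50 after a start site, were searched for these letters (the palindrome reads the same on both strands). Windows were found for 6 of the 9 members, 7 windows in all, since *Ptpn22* had a pair of starts. The element was in 3 of the 7 windows and in 8.3% of all 32851 windows. The *Cish* window held 2 copies, and 0.457% of all windows held at least 2. The 3 stretches are printed here 5′ to 3′ on the strand of the gene, with the matching letters in capitals.
Cish, chr9:107296654-107296683, plus strand: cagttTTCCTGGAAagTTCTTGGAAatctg
Socs3, chr11:117969507-117969525, minus strand: cagccTTCTTAGAAgggag
Ptpn22, chr3:103860040-103860058, plus strand: ctttcTTCTGGGAAtggaa
In *Cish* the first copy began at the RefSeq start itself, within an untranslated exon of 1 of the 5 annotated transcripts. The *Socs3* copy lay 154 bases before the start, in an intron of 1 of the 3 transcripts, and the *Ptpn22* copy lay 232 bases before the second start, in an intron of 1 of the 8. The related spacing that STAT6 prefers, TTC and GAA with 4 bases between, was in 0 of the 7 windows and 6.95% of all windows. *Socs1*, *Ptpn6* and *Sh2b3* had neither in their windows. A match is a match of letters, and no binding was measured in these samples.

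Each compound was compared with its own control, on log2(FPKM + 0.1) with limma over 13733 tested genes, which asked whether EpA changed the brakes, whether fatostatin did, and whether either effect was there when the other compound was present. Changes were small. None of the 9 members reached 1.5-fold in any comparison, while 3.38% of tested genes passed the test at that size with EpA alone, 1.86% with fatostatin alone, 1.99% when fatostatin was added to EpA and 3.75% when EpA was added to fatostatin. With EpA alone, *Cish* and *Ptpn22* fell and none of the 9 rose (13.1% of tested genes were lower and 14.3% higher). With fatostatin alone, *Ptpn22* rose and *Socs3* fell (7.69% higher and 6.31% lower). With EpA plus fatostatin against EpA, *Cish* and *Socs7* rose and none fell (9.22% higher and 6.79% lower). With EpA plus fatostatin against fatostatin, *Socs3*, *Socs7* and *Ptpn2* rose, and *Cish*, *Socs2* and *Ptpn22* fell (16.2% higher and 13.3% lower). The differences in the first and last of these comparisons share no libraries, whereas both single-compound comparisons use the same DMSO libraries. All take their estimate of the spread from 1 fit of the 12 libraries, so no 2 of the p-values are independent.

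**Figure D2:**
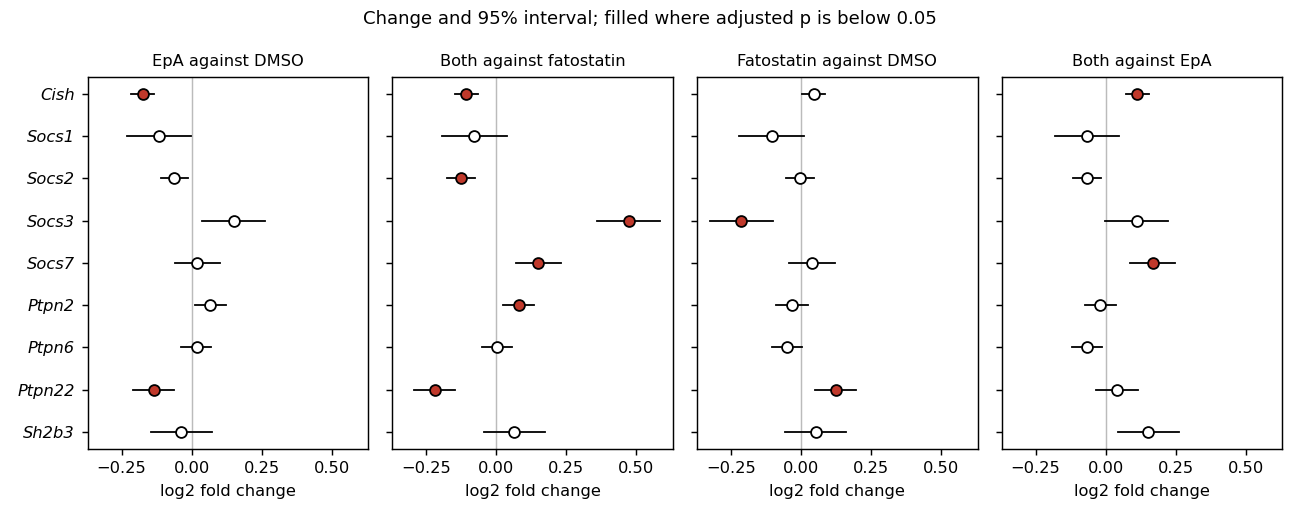
Log2 fold change of each member (points) with its 95% confidence interval (lines) in the 4 comparisons, filled where the Benjamini-Hochberg adjusted p was below 0.05. *Socs3* with EpA plus fatostatin against fatostatin (0.47) lies farthest from 0.

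*Cish* (ENSMUSG00000032578, GRCm38 chr9:107296026-107302784, plus strand) encodes CIS, the SOCS protein induced by IL-2-family cytokines through STAT5. It was at 42.49, 42.68 and 42.05 FPKM with DMSO and at 37.15, 37.29 and 38.26 with EpA. It was at 44.1, 43.51 and 43.66 with fatostatin and at 39.9, 41.22 and 40.76 with EpA plus fatostatin. No group overlapped another, and the order was fatostatin, DMSO, EpA plus fatostatin, EpA. *Cish* fell by 11.4% with EpA (log2 standard error 0.0189, adjusted p = 4.6e-05) and fell by 7.14% when EpA was added to fatostatin (adjusted p = 0.00136). It rose by 8.13% when fatostatin was added to EpA (adjusted p = 0.00195). With fatostatin against DMSO the log2 difference was 0.05 and did not pass (adjusted p = 0.151). The sum of T cell markers was lower in the same EpA libraries. *Cish* shares 261 exonic bases with Gm17040 and 479 with Gm17041 on the opposite strand, and since the strand setting of the counting was not stated, reads there cannot be assigned.

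*Socs3* (ENSMUSG00000053113, chr11:117966079-117970047, minus strand) encodes the SOCS protein that binds gp130 and the JAKs attached to it, and limits IL-6-family signals. It showed the largest change of the 9. Its values were 8.599, 7.941 and 8.281 FPKM with DMSO and 8.817, 9.062 and 9.697 with EpA. They were 6.774, 7.428 and 7.181 with fatostatin and 9.922, 9.443 and 10.43 with EpA plus fatostatin. Thus fatostatin gave the lowest 3 libraries, and DMSO the next 3, while the groups with EpA were highest and overlapped each other. These values rest on 841 to 1236 reads per library. *Socs3* rose by 38.8% when EpA was added to fatostatin (log2 difference 0.47, 95% interval 0.36 to 0.59, adjusted p = 4.32e-05). It fell by 13.7% with fatostatin alone (log2 standard error 0.0515, adjusted p = 0.0175). With EpA alone it was 10.9% higher, just short of the threshold (adjusted p = 0.051), and when fatostatin was added to EpA the log2 difference was 0.11 (adjusted p = 0.183). Two-sided exact permutation tests cannot go below 0.1 with 3 libraries against 3, so the calls rest on the fit across genes. The fatostatin call was lost without DMSO replicate 1 (adjusted p = 0.0723), without DMSO replicate 3 (0.0522) or without fatostatin replicate 1 (0.0697). The EpA value passed in 7 of 22 alternatives, with adjusted p from 0.0398 to 0.18, and among the libraries left out singly it passed without DMSO replicate 1, EpA replicate 1, fatostatin replicate 1, and EpA plus fatostatin replicates 2 and 3.

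The effect of EpA on *Socs3* was set against itself with and without fatostatin. The log2 difference of the EpA effects was 0.32 (95% interval 0.16 to 0.48, unadjusted p = 0.000975), and over all tested genes it did not pass (adjusted p = 0.287). None of the 9 members passed this test in limma, and 6 of 13733 genes did (0.0437%). At an unadjusted p below 0.05 there were 3 of the 9: *Socs3*, *Cish* (0.07, unadjusted p = 0.0277) and *Socs7* (0.13, unadjusted p = 0.0309), while 7.89% of all tested genes (1083) were below it. An effect past the threshold beside fatostatin and not beside DMSO is therefore not shown to differ for any member.

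*Socs2* (ENSMUSG00000020027, chr10:95385362-95417180, minus strand), known for restraining growth hormone signals and as a STAT5 target, was at 33.34, 34.01 and 33.27 FPKM with DMSO and 32.26, 32.01 and 32.11 with EpA. It was at 33.82, 32.62 and 33.98 with fatostatin and 29.91, 31.07 and 31.05 with both. The 3 libraries with both compounds were the lowest of the 12. *Socs2* fell by 8.34% when EpA was added to fatostatin (adjusted p = 0.00147). With EpA alone the log2 difference was -0.06 (adjusted p = 0.0624) with no overlap between the groups. This last value passed in 4 of 22 alternatives: without fatostatin replicate 2 (adjusted p = 0.0484), without EpA plus fatostatin replicate 1 (0.0436), with only the groups compared (0.047) and with voom (0.0376). When fatostatin was added to EpA the log2 difference was -0.07 (adjusted p = 0.0677), again with no overlap, and it passed under median-ratio scaling (0.0248) and with voom (0.0463). With fatostatin alone *Socs2* did not pass (adjusted p = 0.956).

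*Socs1* (ENSMUSG00000038037, chr16:10782240-10785536, minus strand) encodes the inhibitor of JAK1, JAK2 and TYK2 that restrains IFN-γ and IL-4 signals. It was at 21.39, 21.81 and 22.52 FPKM with DMSO, 20.37, 20.35 and 19.89 with EpA, 18.47, 21.02 and 21.74 with fatostatin, and 18.42, 19.56 and 19.89 with both. Fatostatin replicate 1 was the lowest of its group, and the fatostatin libraries overlapped every other group. No comparison of *Socs1* passed: its log2 differences were -0.12 with EpA (adjusted p = 0.13), -0.11 with fatostatin (0.232), -0.07 for fatostatin beside EpA (0.45) and -0.08 for EpA beside fatostatin (0.302). Without fatostatin replicate 1 the first and last were past the threshold, at adjusted p = 0.0231 and 0.0127, and the first also passed with only the groups compared (0.0196).

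*Socs7* (ENSMUSG00000038485, chr11:97362551-97398542, plus strand), a SOCS gene with a longer amino-terminal region that binds several adaptor proteins, had the lowest level of the 9. It was at 5.581, 5.65 and 5.861 FPKM with DMSO and 5.834, 5.811 and 5.699 with EpA. It was at 6.027, 5.867 and 5.683 with fatostatin and 6.676, 6.537 and 6.315 with both. The single-compound groups overlapped DMSO, and the 3 libraries with both compounds were the highest of the 12. *Socs7* rose by 12.4% when fatostatin was added to EpA (adjusted p = 0.00932) and by 10.9% when EpA was added to fatostatin (adjusted p = 0.00999). With EpA alone (log2 difference 0.02, adjusted p = 0.732) and fatostatin alone (0.04, adjusted p = 0.552) it did not pass.

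**Figure D3:**
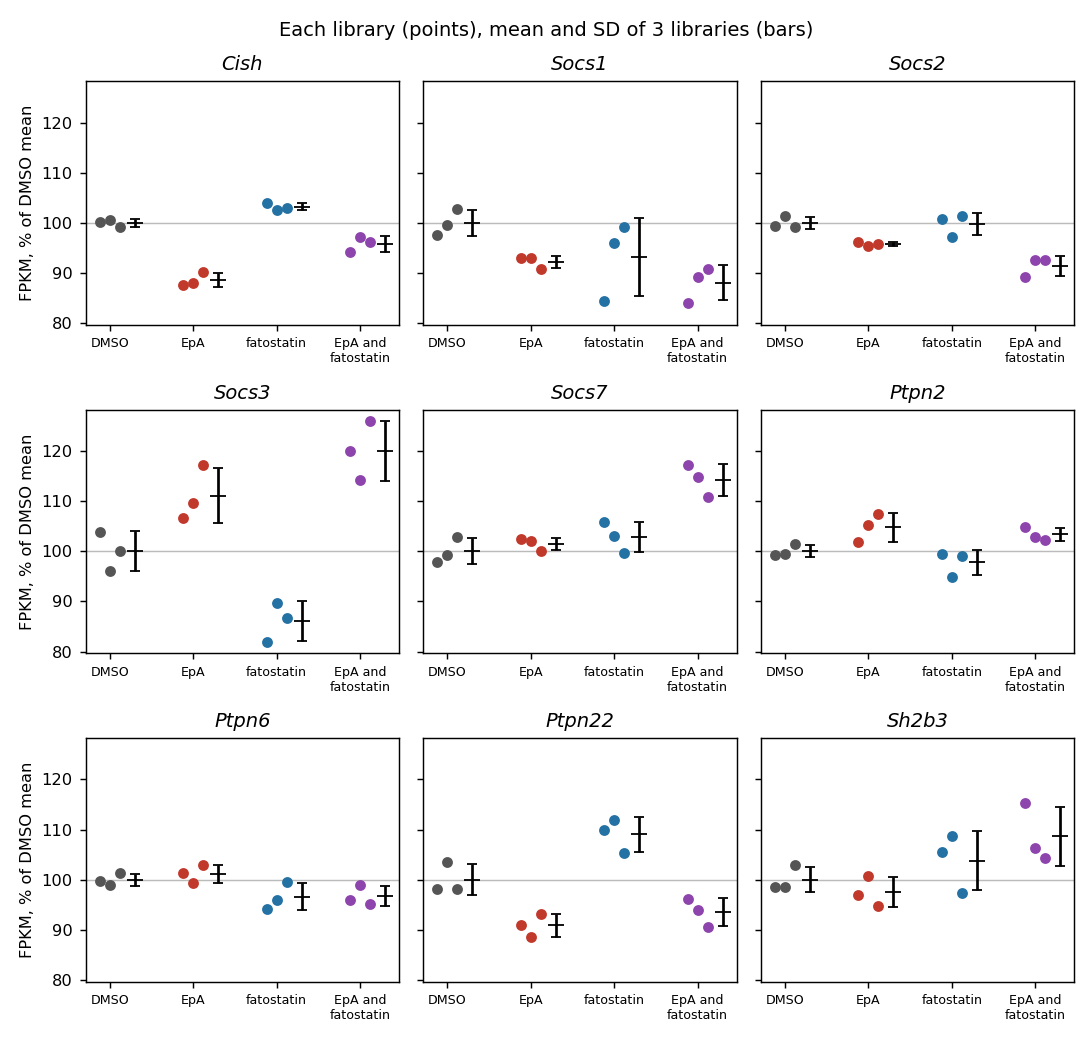
FPKM of each member as a percentage of its DMSO mean, 1 panel per gene (points, libraries; bars, mean and SD, n = 3; horizontal line at the DMSO mean). *Socs3* spreads most, with fatostatin below the line and both EpA groups above it, while *Cish* and *Ptpn22* lie below the line with EpA.

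Of the phosphatases, *Ptpn22* (ENSMUSG00000027843, chr3:103859795-103912247, plus strand) moved most. It was at 27.32, 28.83 and 27.34 FPKM with DMSO and 25.34, 24.66 and 25.94 with EpA. It was at 30.58, 31.16 and 29.3 with fatostatin and 26.77, 26.16 and 25.2 with both. The fatostatin libraries were above all others, and the groups with EpA were below DMSO and overlapped each other. *Ptpn22* fell by 9% with EpA (log2 standard error 0.0334, adjusted p = 0.0105) and fell by 14.1% when EpA was added to fatostatin (adjusted p = 0.000487). It rose by 9.01% with fatostatin (adjusted p = 0.0286), while fatostatin added to EpA gave a log2 difference of 0.04 (adjusted p = 0.473). The fatostatin call was lost without DMSO replicate 1 (adjusted p = 0.102), DMSO replicate 3 (0.0992), fatostatin replicate 1 (0.0842) or fatostatin replicate 2 (0.102), and when only the groups compared were fitted (0.0602) or with no intensity trend (0.0606), so it held in 16 of 22 alternatives.

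*Ptpn2* (ENSMUSG00000024539, chr18:67665511-67724595, minus strand) was at 35.67, 35.74 and 36.45 FPKM with DMSO and 36.59, 37.83 and 38.64 with EpA. It was at 35.79, 34.12 and 35.59 with fatostatin and 37.71, 37.01 and 36.79 with both. Every library with EpA was above every library without it. *Ptpn2* rose by 5.7% when EpA was added to fatostatin (log2 standard error 0.0254, adjusted p = 0.0345), and with EpA alone its log2 difference was 0.07 (adjusted p = 0.0723). With fatostatin it was -0.03 beside DMSO (adjusted p = 0.471) and -0.02 beside EpA (adjusted p = 0.669). The call for EpA added to fatostatin held in 14 of 22 alternatives (adjusted p from 0.0262 to 0.129) and was lost without fatostatin replicate 2 (0.129) or without EpA plus fatostatin replicate 1 (0.102), 2 (0.0673) or 3 (0.0534), under median-ratio scaling (0.0732), with only the groups compared (0.0688), with no intensity trend (0.0712) and with voom (0.0507). The value for EpA alone passed without EpA replicate 1 (adjusted p = 0.0341).

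*Ptpn6* (ENSMUSG00000004266, chr6:124720707-124738714, minus strand), the most abundant of the 9, ran from 58.15 to 63.51 FPKM over the 12 libraries. It passed in none of the 4 comparisons. The groups without fatostatin had means of 61.7 ± 0.768 and 62.46 ± 1.1 FPKM (SD, n = 3), and those with it 59.6 ± 1.69 and 59.65 ± 1.21. The log2 difference nearest to the threshold was that of fatostatin added to EpA, -0.07 (adjusted p = 0.0913), where the groups did not overlap. It passed under median-ratio scaling (adjusted p = 0.0399). The others were 0.02 with EpA (adjusted p = 0.651), -0.05 with fatostatin (0.217) and near 0 with EpA added to fatostatin (0.981). *Ptpn6* shares 195 exonic bases with Gm20531 on the opposite strand.

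*Sh2b3* (ENSMUSG00000042594, chr5:121815488-121837646, minus strand) was at 7.183, 7.179 and 7.492 FPKM with DMSO, 7.07, 7.34 and 6.903 with EpA, 7.683, 7.917 and 7.092 with fatostatin, and 8.405, 7.741 and 7.604 with both. The 3 libraries with both compounds were above all 6 with DMSO or EpA alone and overlapped those with fatostatin. It was 11.2% higher with both compounds than with EpA, short of the threshold (adjusted p = 0.0596), and passed there without fatostatin replicate 3 (adjusted p = 0.0399), with a minimum mean of 1 FPKM (0.0464) and with voom (0.0318). Its other log2 differences were -0.04 with EpA (adjusted p = 0.654), 0.05 with fatostatin (0.561) and 0.07 with EpA added to fatostatin (0.376). It shares 99 exonic bases with *Atxn2* on the opposite strand.

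Averaging each compound over both backgrounds, a comparison chosen after these values were seen, uses all 12 libraries at once. For EpA, *Cish*, *Socs2* and *Ptpn22* fell (log2 differences -0.14, -0.09 and -0.18, adjusted p = 7.52e-06, 0.000608 and 0.000102), and *Socs3*, *Socs7* and *Ptpn2* rose (0.31, 0.09 and 0.07, adjusted p = 3.9e-05, 0.0213 and 0.00642). Of all tested genes 22% were higher and 19.3% lower. For fatostatin, *Cish*, *Socs7* and *Ptpn22* rose (0.08, 0.10 and 0.08, adjusted p = 0.00114, 0.0125 and 0.0239) and *Ptpn6* fell by 0.06 on the log2 scale (adjusted p = 0.0281), against 14.1% higher and 11.5% lower. *Socs3* did not pass for fatostatin, as its average of -0.05 (adjusted p = 0.351) joins -0.21 beside DMSO and 0.11 beside EpA. The *Socs7* average for EpA joins 0.02 beside DMSO and 0.15 beside fatostatin. That for fatostatin joins 0.04 beside DMSO and 0.17 beside EpA. In both cases only the *Socs7* value beside the other compound passed by itself. Of the calls for EpA, that of *Socs7* was lost without DMSO replicate 1 (adjusted p = 0.0504) or fatostatin replicate 3 (0.0519). *Socs1*, short of the threshold for EpA (-0.10, adjusted p = 0.0555), passed in 6 of 21 alternatives: without fatostatin replicate 1 (0.00158), with the replicate block (0.0293), with TPM (0.0369), under median-ratio scaling (0.0423), with a minimum mean of 1 FPKM (0.0438) and with voom (0.0213). For fatostatin, *Ptpn22* no longer passed without DMSO replicate 1 or 3, EpA replicate 2, fatostatin replicate 1 or 2, or EpA plus fatostatin replicate 1 (adjusted p from 0.0515 to 0.0584). *Ptpn6* no longer passed without DMSO replicate 1 or 3, EpA replicate 1 or 3, fatostatin replicate 1 or 2, or EpA plus fatostatin replicate 1 or 3 (adjusted p from 0.0515 to 0.0679), nor with no intensity trend (0.0686). *Sh2b3* (0.10, adjusted p = 0.0528) passed without fatostatin replicate 3 (0.0195) or EpA plus fatostatin replicate 3 (0.0439), with a minimum mean of 1 FPKM (0.0418) and with voom (0.0319). *Socs2* (-0.04, adjusted p = 0.136) passed under median-ratio scaling (0.0487), and *Socs1* (-0.09, adjusted p = 0.117) passed without fatostatin replicate 3 (0.0443).

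The other genes of the pathway give the setting in which the brakes were measured. The remaining SOCS genes were *Socs4* (13.95 ± 0.532 FPKM with DMSO, SD, n = 3), *Socs5* (2.139 ± 0.233) and *Socs6* (2.09 ± 0.0147). None of the 3 passed in the first 3 comparisons, and *Socs4* rose when EpA was added to fatostatin (log2 difference 0.13, adjusted p = 0.035). Of the 6 SOCS box partners that form the ubiquitin ligase, 3 rose with EpA, namely *Cul2* (0.22, adjusted p = 0.00099), *Rnf7* (0.13, adjusted p = 0.0352) and *Eloc* (0.11, adjusted p = 0.0488), and *Cul2* and *Eloc* also passed when EpA was added to fatostatin. None passed with fatostatin on either background.

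Among 21 other phosphatases and adaptors of cytokine and antigen receptor signals, 7 fell and 1 rose with EpA, and 9 fell and 2 rose when EpA was added to fatostatin. The leading genes were *Cblb*, a ubiquitin ligase that restrains T cell activation (-0.51, adjusted p = 2.29e-06), *Ptprc*, the phosphatase CD45 (-0.33, adjusted p = 4.28e-06), and *Csk*, the kinase partner of the *Ptpn22* product (-0.21, adjusted p = 2.49e-05). With fatostatin 2 rose and none fell, *Cblb* by 0.39 (adjusted p = 2.94e-05) and *Ptprc* by 0.24 (adjusted p = 0.000104). The medians of this list were -0.06 with EpA and 0.01 with fatostatin, against 0.00 and 0.01 over all tested genes.

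The JAK kinases and STAT factors (11 genes) gave 5 lower and 2 higher with EpA, led by *Stat4* (10.27 against 6.444 FPKM, adjusted p = 5.36e-06) and with *Stat3* higher (0.15, adjusted p = 0.000339). With fatostatin 4 rose and none fell, among them *Jak2* (0.21, adjusted p = 4.59e-05) and *Stat5a* (0.18, adjusted p = 0.000692). When fatostatin was added to EpA 7 rose, with *Stat5a* at 0.26 (adjusted p = 4.24e-05). *Stat5a* and *Stat5b* encode the factors known to drive *Cish*. *Stat5a* had a mean of 50.49 FPKM with DMSO, 48.14 with EpA, 57.24 with fatostatin and 57.66 with both. *Stat5b* had 70.22, 65.73, 71.47 and 69.19 and fell with EpA (adjusted p = 0.0073), where *Stat5a* did not pass. *Stat6*, whose factor is known to drive *Socs1*, had 45.38, 48.15, 45.89 and 52.89. It rose with EpA (adjusted p = 0.0074) and when fatostatin was added to EpA (adjusted p = 0.000744), while *Socs1* passed in no comparison. A link between the levels of these STAT genes and the members was not tested.

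Cytokines and their receptors feed these signals. Of 12 cytokine genes 10 were tested, and with EpA 7 rose and none fell. *Il9* went from 54.61 to 640 FPKM (log2 difference 3.55, adjusted p = 2.18e-11), *Il21*, an activator of STAT3, from 1.269 to 3.284 (1.31, adjusted p = 1.13e-06), and *Il10* rose by 0.31 (adjusted p = 3.62e-06). With fatostatin 2 rose and 3 fell, *Il10* from 110.1 to 53.65 FPKM (adjusted p = 2.89e-10). *Il2* was too low to be tested, at 0 to 7 reads per library. Of 19 tested cytokine receptors 5 rose and 7 fell with EpA: *Il2ra* went from 693.1 to 876.4 FPKM (adjusted p = 6.73e-07), and *Il4ra* (-0.34, adjusted p = 1.13e-07) and *Il7r* (-0.51, adjusted p = 2.19e-06) fell. When EpA was added to fatostatin the counts were 7 higher and 1 lower for cytokines, and 4 higher and 7 lower for receptors.

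Known target genes of the STATs were counted in 2 lists. Of 10 STAT3 response genes, 6 rose and 1 fell with EpA. Those that rose included *Il21*, *Junb* (0.43, adjusted p = 3.96e-06) and *Batf* (0.34, adjusted p = 5.2e-06). With fatostatin 2 fell and none rose, namely *Maf* (-0.49, adjusted p = 5.12e-07) and *Junb* (-0.17, adjusted p = 0.00553). The list medians were 0.19 and -0.10, and 0.29 when EpA was added to fatostatin. When fatostatin was added to EpA 2 rose and 2 fell, with a median of 0.035. STAT3 is also known to drive *Socs3*, and whether it had a part in the changes of *Socs3* was not tested. Of 12 STAT5 and STAT6 response genes 5 rose and 5 fell with EpA, with a median of 0.01, and 3 rose and 3 fell with fatostatin. When fatostatin was added to EpA 7 of these rose and 4 fell. Some genes stand in more than 1 list, and the lists were assembled with earlier results known, so the counts are a description.

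**Figure D4:**
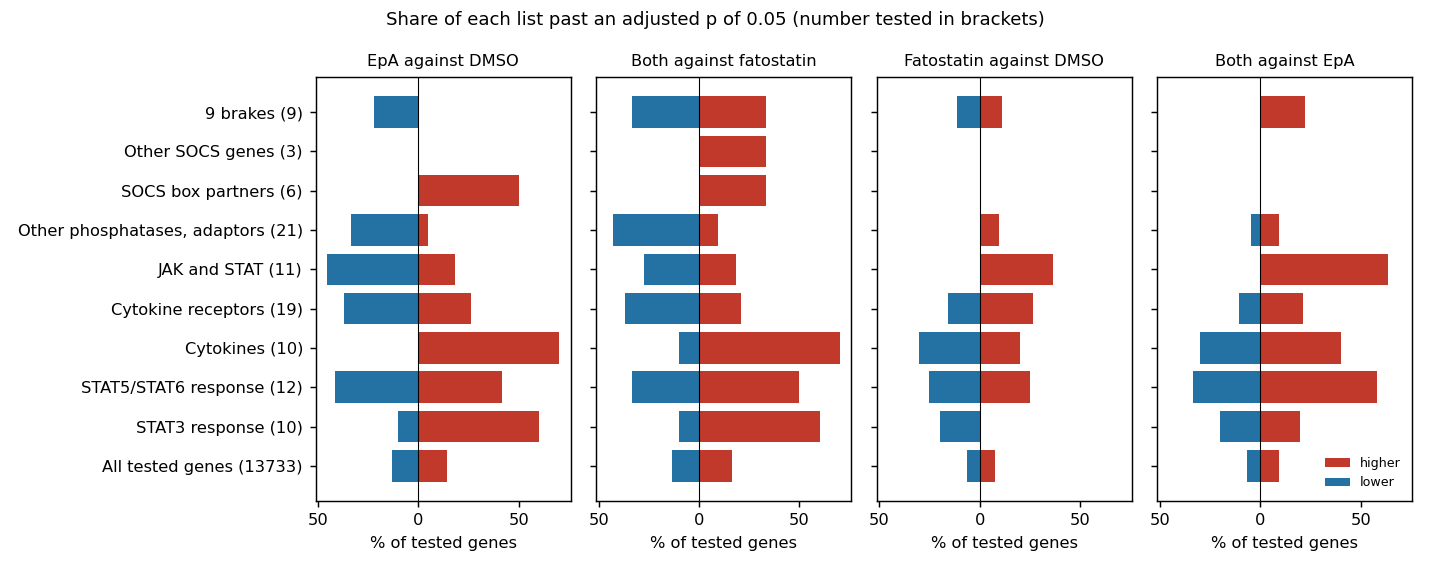
Percentage of tested genes in each list that were higher (red, to the right) or lower (blue, to the left) at adjusted p below 0.05, 1 panel per comparison, with the members at the top and all tested genes at the bottom. The STAT3 response genes lie mostly to the right in both EpA comparisons (6 of 10 higher).

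For each member past the test in at least 1 comparison, the most similar genes were sought by the root mean square difference of centered log2 values over the 12 libraries, among 10289 genes outside the 9. This gave 6 members from the 4 comparisons, and *Ptpn6* from the averaged effect of fatostatin. The nearest to *Cish* were *Ndufv3* (0.0245), *Wipf1* (0.0267) and *Arglu1* (0.0302), against a spread of 0.0837 for *Cish* around its own mean. For *Socs3* they were *Atrnl1* (0.0598), *Gys1* (0.0633) and *Trip10* (0.0703), against its own 0.185. The difference is not scaled to the spread of a gene, so it does not rank closeness between members. The nearest to *Ptpn22* (own spread 0.106) were *Mapk14* (0.0328), *Tln1* (0.036) and *Man1a2* (0.0372), and to *Socs7* (0.0798) *Rbm26* (0.0271), *Epb41l2* (0.0277) and *Khdc4* (0.0293). For *Socs2* (0.0561) they were *Gas5* (0.0219), *Atp5pd* (0.0238) and *Runx1* (0.0239), for *Ptpn6* (0.0382) *M6pr* (0.0173), *Rab5c* (0.0183) and *Rbbp4* (0.0194), and for *Ptpn2* (0.0462) *Thumpd3* (0.0238), *Elp2* (0.0241) and *Hapstr1* (0.0242). Likeness of pattern over 12 libraries in 4 groups is a description only.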

How the data were processed

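Total RNA was made into libraries with a TruSeq RNA kit. Per the study's methods, Trim Galore, HISAT2 on GRCm38 and featureCounts were used in turn, and the authors deposited FPKM per gene for the 12 libraries. The annotation release and the strand setting were not given in the sources used here. The table had 32352 lines, 301 of them repeats with identical values, which were counted once, and 0 columns of no sample.

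Here, FPKM were tested as log2(FPKM + 0.1) with limma 3.58.1 in R 4.3.3 (all 4 groups in 1 fit, intensity trend), on the 13733 genes whose mean reached 0.1 FPKM, with Benjamini-Hochberg adjustment over all of them and 0.05 as the threshold. Percent changes are on this scale, which understates the change of low genes. The test was checked on simulated data. With exon lengths from GENCODE M21 (32003 genes, 99.9%), 98.3 to 98.4% of the values were whole reads within 0.02, and these reads were used for depth and for voom as an alternative. *Socs7* was the exception among the members: its values were not whole in 10 of 12 libraries, so its recovered reads, used with voom, are approximate, while its FPKM are as deposited. One read on 1 kb was worth 0.02253 to 0.02732 FPKM. No 2 libraries held identical values. All members were named in every comparison, and of each other list at most the 3 tested genes with the smallest adjusted p among those past the test. The members and lists were chosen with earlier results of these data known. The values of *Socs4*, *Socs5*, *Socs6*, *Stat5a* and *Stat5b* in groups where they did not pass were added after they were seen, as were those of *Stat6*. Alternatives were other pseudocounts, minimums, TPM, median-ratio scaling, separate fits, a replicate block, no trend, voom and leaving out each library. One list of target genes is not reported here.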

Additional observations from a re-analysis of the deposited data

How the results depend on the processing

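With 22 alternatives to each of the 4 comparisons, the direction of a member and its side of the threshold held for 184 of 198 values with EpA, 186 of 198 with fatostatin, 192 of 198 for fatostatin added to EpA and 185 of 198 for EpA added to fatostatin. *Cish* and *Ptpn22* with EpA, *Cish* and *Socs7* with fatostatin added to EpA, and *Cish*, *Socs2*, *Socs3*, *Socs7* and *Ptpn22* with EpA added to fatostatin passed under every one of these. The number of members past the test with EpA was 4 instead of 2 when only the groups compared were fitted, and 2 to 4 when 1 library was left out. With fatostatin it was 1 when only those groups were fitted or without the intensity trend, and 0 to 2 when 1 library was left out. For fatostatin added to EpA it was 4 under median-ratio scaling and with voom on recovered reads. For fatostatin averaged over both backgrounds it was 2 to 6 when 1 library was left out. The cause was not tested.

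The counts of all genes past the test and 1.5-fold fell with a pseudocount of 1 FPKM (141 with EpA, 89 with fatostatin, 84 for fatostatin added to EpA and 161 for EpA added to fatostatin) and with a minimum mean of 1 FPKM, which tests fewer genes (216, 143, 147 and 252). For the difference of the EpA effects, 6 genes passed in the text, 10 with a pseudocount of 0.01, 2 with TPM, 0 with median-ratio scaling, 0 with the replicate block, 20 with voom, and 0 to 2 when 1 library was left out.

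Signs turned only for differences near 0. *Socs2* with fatostatin was 0.003 with TPM and ran from -0.014 to 0.015 when 1 library was left out. *Ptpn6* with EpA added to fatostatin was -0.013 under median-ratio scaling and ran from -0.016 to 0.024. For the difference of the EpA effects, *Socs1* ran from -0.032 to 0.085, *Ptpn2* from -0.009 to 0.031 and *Ptpn6* from -0.034 to 0.006. *Sh2b3* with EpA averaged ran from -0.008 to 0.031.

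No pairing of the samples by replicate number was seen, and the labels do not say whether there was one. Over 18 pairs with the same number, deviations from the group means correlated at -0.047 to 0.074. Pairs with different numbers gave -0.086 to 0.049, and 5 of 12 libraries were closest to their own number. With the replicate block 2, 2, 2 and 6 members passed in the 4 comparisons, the same counts as without it. At this depth *Socs3* had 841 reads or more per library, and counting error and spread between libraries were not separated.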
